A study of Caenorhabditis elegans with 4 samples.

Results

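The genes described here make the major sperm proteins and several families of small sperm proteins of Caenorhabditis elegans, measured by mRNA sequencing of whole animals. They were chosen by name: a row of the deposited expression table was a member when its clone name matched, in the Ensembl annotation of the WBcel235 assembly, a gene called msp, msrp, ssp, ssq, sss, nspd or nsph with a number. The annotation holds 73 such genes, and 62 of them were rows among the 13758 rows of the table: 28 msp, 6 msrp, 8 ssp, 4 ssq, 1 sss, 9 nspd and 6 nsph genes. The other 11 were not analysed here.

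The tested animals were of strain GG14, genotype fasn-1(g14), in which the gene for fatty acid synthase is mutated, and they were set against N2 (Bristol) wild type. Both groups went through the same early-life starvation: bleached embryos stood at 1 egg per µl in S-basal, without food, for 8 days at 20 °C, which holds larvae in arrest at the first stage, and 750 live animals were then fed empty-vector HT115 bacteria on plates with 25 µg/ml carbenicillin and 1 mM IPTG. They were collected as early adults, when eggs had appeared on the plate after about 68 hours, as pools of whole worms. Each group had 2 libraries, numbered 3 and 4 and described as biological replicates in the design text, so a difference is always one between 2 mutant and 2 wild-type libraries that had all been starved.

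The major sperm protein (MSP) is the most abundant protein of nematode sperm. In C. elegans it assembles into the filament network that drives the crawling of the sperm, which have no actin-based motility, and it is also released from sperm as a signal that starts oocyte maturation and contraction of the gonadal sheath. Many nearly identical msp genes encode it. The hermaphrodite makes sperm for a limited time late in larval life and then switches to oocytes, and spermatids no longer transcribe their genes. The ssp, ssq and sss genes are named as sperm-specific families of the classes P, Q and S, and the nspd and nsph genes as groups D and H of the nematode-specific peptides.

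The recovered depth lay between 13960509 and 15889424 reads per library. One read was worth 0.0628 to 0.0676 CPM (reads scaled to library size by the authors), so 3 reads, taken here as the floor, stood at 0.188 to 0.203 CPM. A chi-square of the reads between replicates was 13.3 times its degrees of freedom in the mutant and 4.58 times in wild type, so the mutant pair was the less alike. The mutated gene fasn-1 stood at 353 and 285 CPM in the mutant and at 369 and 410 CPM in wild type (log2 change -0.29, SE 0.11), so its level did not check the genotype labels. In whole animals, a difference in the number of sperm or sperm precursors and one in the RNA of each cannot be told apart.

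The sperm families were low in every library and higher in the mutant. Summed over the 62 genes, the level was 176 and 232 CPM in mutant replicates 3 and 4, and 45.2 and 76.0 CPM in wild-type replicates 3 and 4. This was 2611 and 3582 reads in the mutant libraries and 720 and 1126 reads in the wild-type libraries, or 0.0178% and 0.0225% of all reads in the mutant and 0.00479% and 0.00807% in wild type. The ratio of the summed means was 3.37, and no test was made of a sum over chosen genes. A single gene, nsph-1.2, held much of the wild-type sum, with 18.8 and 20.2 CPM there and 18.4 and 12.7 CPM in the mutant. Without nsph-1.2 and msrp-7, the 2 members that ran the other way and were set aside after their values were seen, the sums were 157 and 219 CPM in the mutant and 22.6 and 50.3 CPM in wild type.

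For 58 of the 62 genes both mutant libraries lay above both wild-type libraries. For 2 genes both lay below, and for 2 the groups overlapped. Over all rows of the table, the mutant libraries lay above in 30.9% and below in 32.7%. In limma's test on log2(CPM + 1), fitted over all 13758 rows with Benjamini-Hochberg adjustment and a threshold of 0.05, 43 of the 62 genes rose, 1 fell and 18 did not pass, against 4.27% of all rows that rose and 10.5% that fell. With the filter of at least 1 CPM in at least 2 libraries, 52 of the 62 were tested among 12977 genes. The same 43 rose and 1 fell, against 4.41% higher and 10.7% lower among all genes tested. Of those 52, 29 passed the filter through the mutant libraries alone, so for these 29 the fit over all rows is the one to read, and where a p is printed for a named one of them, the p over all rows stands beside it. The median log2 change of the 62 genes was 1.36 over all rows, beside 0.00 for all rows of the table.

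These calls rested on few wild-type reads, and fewer were made when either library of that group was dropped. The direction of the changes stayed. The median log2 change of the 52 genes in the filtered fit was 1.46 with all 4 libraries. Dropping replicate 3 of wild type gave 1.21 and dropping its replicate 4 gave 1.63, with 50 of the 52 above 0 each time. Why fewer calls were made was not tested. Of the 62 genes, 1 had at most 3 reads in mutant replicate 3 and 0 had so few in mutant replicate 4, against 25 in wild-type replicate 3 and 8 in wild-type replicate 4. Among the 52 genes of the filtered fit, 48 rose with mutant replicate 3 left out and 43 with mutant replicate 4 left out, but 5 with wild-type replicate 3 left out and 19 with wild-type replicate 4 left out. Over all rows, an alternative chosen after seeing the data, the counts among the 62 were 50 and 42 with mutant replicate 3 or 4 left out, and 7 and 23 with wild-type replicate 3 or 4 left out. The 5 of the filtered fit were msp-19, msp-53, msp-57, msp-76 and msp-79. Over all genes tested 572 rose, and 151 and 152 did when wild-type replicate 3 or 4 was missing. The quasi-likelihood test of edgeR on the recovered reads, over all rows, called 28 of the 62 higher and 1 lower, against 3.23% and 6.96% of all rows. The 15 genes that rose in limma but not in edgeR had edgeR adjusted p-values from 0.0503 to 0.0788 over all rows: 8 msp genes, 2 ssp, 2 nspd and 2 nsph genes, and msrp-2. With the filter it called 29 higher and 1 lower, against 3.38% and 7.04% of all genes tested.

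**Figure D1:**
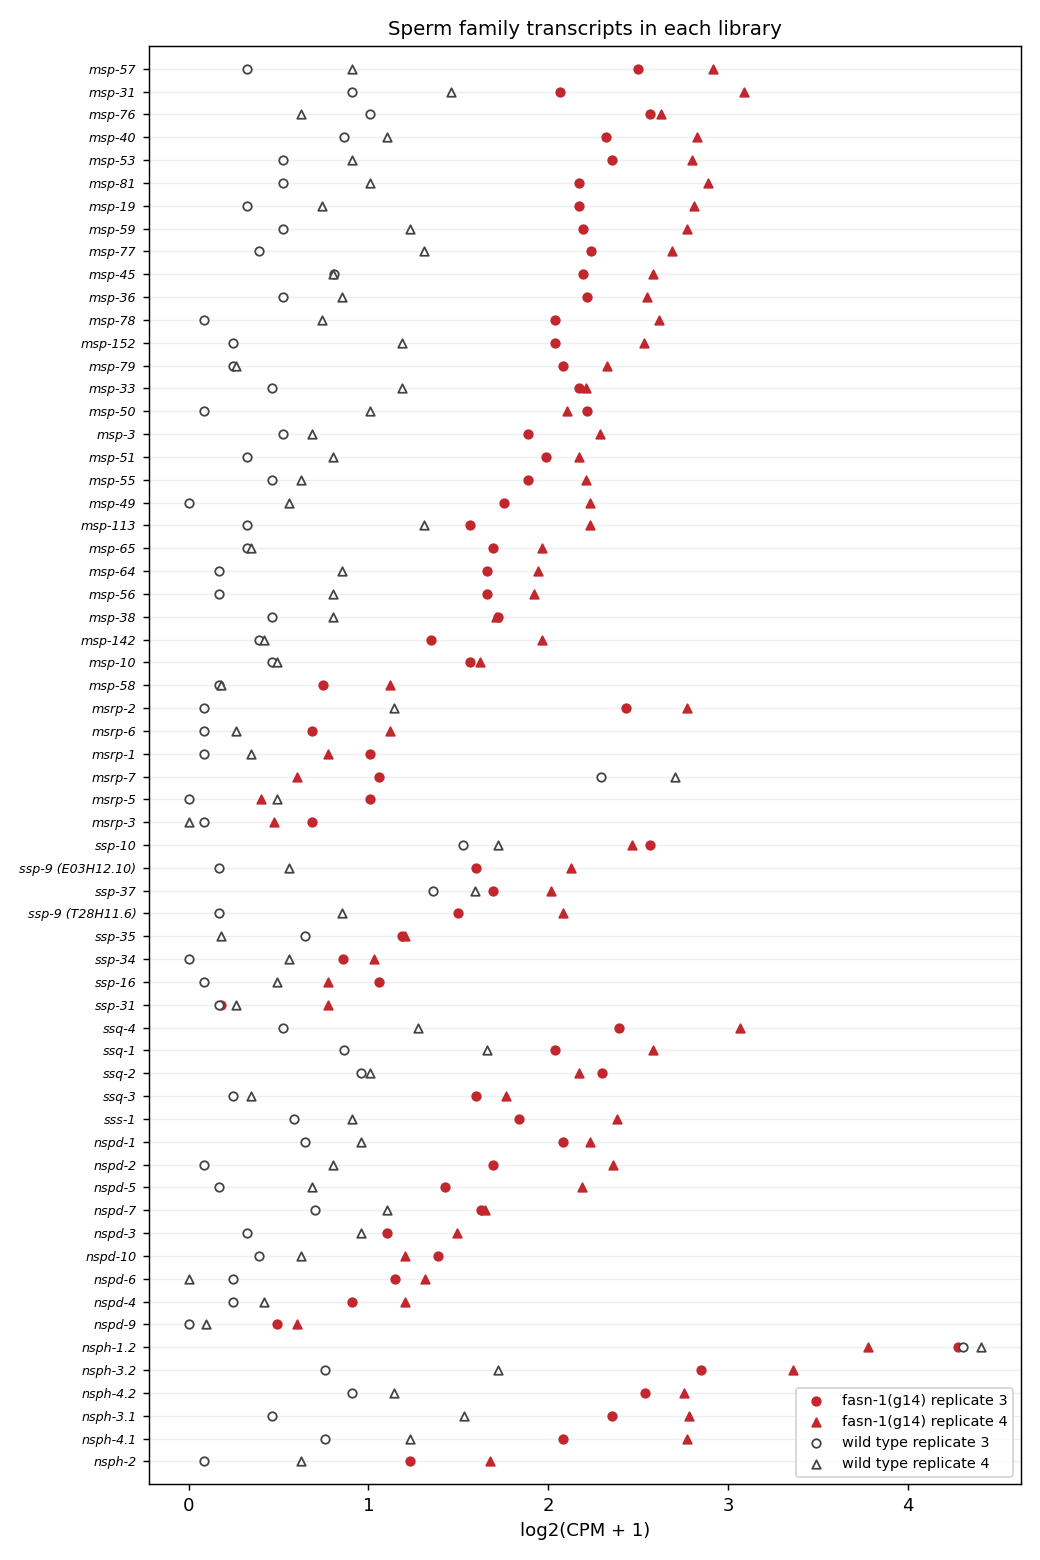
Level of each of the 62 sperm family transcripts, as log2(CPM + 1), in fasn-1(g14) replicates 3 and 4 (filled) and wild-type replicates 3 and 4 (open), grouped by family and ordered by mutant mean. The filled symbols lie right of the open ones in 58 rows, and msrp-7 and nsph-1.2 are the rows where they lie to the left.

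The msp genes gave the most uniform picture, within the limit given below for reads that fit several copies. Their summed level was 84.8 and 121 CPM in mutant replicates 3 and 4, against 9.93 and 23.0 CPM in wild-type replicates 3 and 4, a ratio of 6.25 between the means. In all 28 genes both mutant libraries lay above both wild-type libraries. Of the 28, 26 rose, 0 fell, and msp-58 and msp-113 did not pass. Over the 28 genes the median level per library was 3.15 and 3.95 CPM in the mutant, from 46.5 and 61.0 reads, and 0.314 and 0.742 CPM in wild type, from 5 and 11 reads.

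The 28 genes lie on chromosomes II (10 genes) and IV (18 genes) and are annotated as single exons, 27 of them with a coding length of 384 bases. Because the coding sequences are nearly the same, reads can fit several copies, and how the authors placed such reads is not given in the sources used here. A value for 1 msp gene is therefore uncertain as to which copy it measures, and the family sum is less open to this. If copies shared reads, the 28 msp rows would not be separate observations, and some likeness between them would follow from the sharing. This limits how many msp genes can be said to rise or stand apart, and the same numbers over all families. How far rows shared reads was not tested. If reads that fit several copies were left out instead, the sum and every msp level would be too low as well. This was not tested, and it limits any msp level set beside other genes. The copies differed in level. In the mutant the means ran from 0.921 to 5.60 CPM with a median of 3.60, and in wild type from 0.130 to 1.32 CPM with a median of 0.548.

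By mean CPM over the 4 libraries, the 8 highest msp genes were msp-31, msp-57, msp-40, msp-76, msp-53, msp-81, msp-59 and msp-77. The gene msp-57 (R13H9.2, chromosome IV, 5062578 to 5062961, plus strand) had 4.66 and 6.54 CPM in the mutant libraries, from 69 and 101 reads, against 0.251 and 0.877 CPM in the wild-type libraries, from 4 and 13 reads. Its log2 change of 2.09 (SE 0.30; limma, adjusted p = 0.0107, and 0.00936 over all rows) was the largest among the members tested. Its neighbour msp-53, 5064678 to 5065061 on the minus strand, had 4.12 and 5.96 CPM in the mutant and 0.440 and 0.877 CPM in wild type. On the ratio of means these were 9.93-fold and 7.65-fold higher in the mutant, and in both genes the groups stood well apart.

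The gene msp-76 had the closest mutant replicates of the 8, at 4.93 and 5.18 CPM, against 1.01 and 0.540 CPM in wild type (log2 change 1.79, SE 0.25; limma, adjusted p = 0.0107). It was one of the few members whose wild-type replicate 3 lay above replicate 4. By contrast msp-31, the highest msp gene in wild type, had 3.18 and 7.51 CPM in the mutant and 0.880 and 1.75 CPM in wild type. The spread between its mutant libraries, an SD of 3.07 CPM around a mean of 5.34, left it just past the threshold (log2 change 1.39, SE 0.38; limma, adjusted p = 0.0497). It was not called by edgeR over all rows (adjusted p = 0.0564), nor was msp-77 (adjusted p = 0.0538).

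For msp-40 the mutant libraries gave 3.99 and 6.09 CPM and the wild-type libraries 0.817 and 1.15 CPM, a ratio of 5.13. For msp-81 they gave 3.51 and 6.41 CPM in the mutant and 0.440 and 1.01 CPM in wild type, a ratio of 6.84. The values of msp-59 were 3.58 and 5.83 CPM in the mutant and 0.440 and 1.35 CPM in wild type, and those of msp-77 were 3.72 and 5.44 CPM in the mutant and 0.314 and 1.48 CPM in wild type. All of these rose (limma, adjusted p between 0.016 and 0.0285), by 1.59, 1.76, 1.60 and 1.61 on the log2 scale. In each the 2 wild-type libraries were the lower pair, and replicate 4 was the higher of both pairs.

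The smallest p among the members belonged to msp-79 (chromosome IV, 9766771 to 9767154, minus strand), with 3.24 and 4.01 CPM in the mutant and 0.188 and 0.202 CPM in wild type. That is 48 and 62 reads in the mutant against 3 and 3 reads in wild type, so wild type stood at the floor. The ratio of its reads, scaled for depth, was 18.6, with an exact 95% interval of 8.29 to 51.9 that covers counting error only (log2 change 1.95, SE 0.24; limma, adjusted p = 0.00736, and 0.00603 over all rows). Its neighbour msp-78 (9770046 to 9770429, plus strand) had 3.11 and 5.12 CPM in the mutant against 0.0628 and 0.675 CPM in wild type.

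Of the 2 msp genes that did not pass, msp-113 had 1.96 and 3.69 CPM in the mutant and 0.251 and 1.48 CPM in wild type (log2 change 1.08, SE 0.39; limma, adjusted p = 0.0992). The other, msp-58, is the shortest msp gene of the table with 234 bases. It had 10 and 18 reads in the mutant and 2 and 2 reads in wild type, a depth-scaled read ratio of 7.12 with an exact interval of 2.49 to 27.9. It failed the filter, and over all rows its log2 change was 0.75 (limma, adjusted p = 0.0676). Over the 28 msp genes the ratio of means ran from 3.26 for msp-113 to 18.6 for msp-79, with a median of 6.49.

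**Figure D2:**
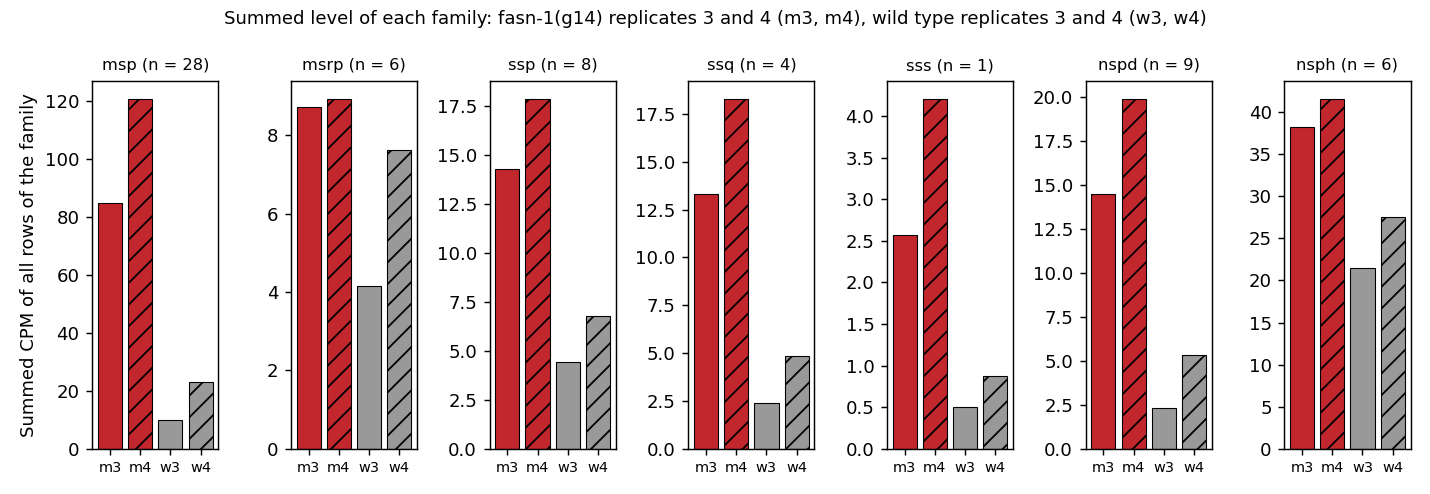
Summed CPM of all rows of each family in fasn-1(g14) replicates 3 and 4 (m3 and m4, red) and wild-type replicates 3 and 4 (w3 and w4, grey), with a separate linear axis from 0 for each family. The msp sums are 84.8 and 121 CPM in the mutant against 9.93 and 23.0 CPM in wild type, while the msrp sums are the closest, at 8.72 and 8.94 against 4.15 and 7.62 CPM.

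In the msrp family the members went both ways. In the fit over all rows, 1 of the 6 genes rose, 1 fell and 4 missed the threshold. The gene that rose was msrp-2 (chromosome I), with 4.39 and 5.83 CPM in the mutant and 0.0628 and 1.21 CPM in wild type, which is 65 and 90 reads against 1 and 18 reads (log2 change 1.98, SE 0.37; limma, adjusted p = 0.0192). Its wild-type libraries differed from each other far more than its mutant libraries did on the log scale, and edgeR over all rows did not call it (adjusted p = 0.0511).

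The gene that fell was msrp-7 (R06F6.7, chromosome II, 10810990 to 10812188, plus strand), the only one of the 62 called lower. It had 1.08 and 0.518 CPM in the mutant, from 16 and 8 reads, and 3.90 and 5.53 CPM in wild type, from 62 and 82 reads. The groups did not overlap, and the mutant mean was 0.170 times the wild-type mean (log2 change -1.67, SE 0.28; limma, adjusted p = 0.0154). In edgeR's test it was lower as well (adjusted p = 0.0226), but without wild-type replicate 4 it no longer passed in limma, with a change of -1.46. It also differs in gene structure, with 3 annotated exons, where the other msrp genes have 1.

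The remaining msrp genes were near the floor. The gene msrp-6 had 0.608 and 1.17 CPM in the mutant against 0.0628 and 0.202 CPM in wild type, and msrp-1 had 1.01 and 0.712 CPM in the mutant against 0.0628 and 0.270 CPM in wild type. Both failed the filter, and over all rows neither passed (limma, adjusted p = 0.0839 and 0.0876). For msrp-3 there were 9 and 6 reads in the mutant and 1 and 0 in wild type, a depth-scaled ratio of 15.2 whose exact interval reached from 2.35 to 642. The groups of msrp-5 overlapped, with 15 and 5 reads in the mutant and 0 and 6 in wild type.

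Among the ssp genes, which encode short proteins with the MSP fold, 3 of 8 rose, 0 fell and 5 did not pass over all rows. The summed level was 14.3 and 17.9 CPM in the mutant and 4.46 and 6.81 CPM in wild type, a ratio of 2.86. The highest, ssp-10 (chromosome IV, 9850702 to 9851031, minus strand), had 4.93 and 4.53 CPM in the mutant and 1.88 and 2.29 CPM in wild type. Its replicates were close in both groups, and its ratio of 2.27 was smaller than that of any msp gene (log2 change 0.89, SE 0.24; limma, adjusted p = 0.0459). It was not called by edgeR (adjusted p = 0.0613).

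The annotation gives the name ssp-9 to 2 genes that lie within 6 kb of each other on chromosome IV. The row E03H12.10 had 2.03 and 3.37 CPM in the mutant and 0.126 and 0.472 CPM in wild type, and the row T28H11.6 had 1.82 and 3.24 CPM in the mutant and 0.126 and 0.809 CPM in wild type. Both rose (limma, adjusted p = 0.021 and 0.0425, and 0.0182 and 0.0391 over all rows), but edgeR did not call T28H11.6 (adjusted p = 0.0742). Reads can be shared between them as between msp copies. Between ssp-10 and the ssp-9 rows in level was ssp-37, on chromosome I, with 2.23 and 3.04 CPM in the mutant and 1.57 and 2.02 CPM in wild type, a difference that did not pass (log2 change 0.37, SE 0.26; limma, adjusted p = 0.35). The groups of ssp-31 overlapped, at 2 and 11 reads in the mutant and 2 and 3 reads in wild type. Also ssp-16, ssp-34 and ssp-35 did not pass, with log2 changes of 0.63, 0.66 and 0.78 over all rows. The added 1 CPM shrinks these changes, and the ratios of means were 3.84, 3.91 and 3.68.

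The ssq genes and sss-1 have 3 exons each and are several times longer than an msp gene. Of the 4 ssq genes, 3 rose, and sss-1 rose as well. The highest, ssq-4 (chromosome IV, 5016479 to 5017766, plus strand), had 4.26 and 7.38 CPM in the mutant and 0.440 and 1.42 CPM in wild type (log2 change 1.83, SE 0.35; limma, adjusted p = 0.0205). Its exons overlap those of T28H11.7 on the other strand, and since the library kit does not mark strand, reads of the pair cannot be told apart. No other member overlaps an exon of another annotated gene.

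The gene ssq-2 had 3.92 and 3.50 CPM in the mutant and 0.942 and 1.01 CPM in wild type, with close replicates in both groups (log2 change 1.25, SE 0.24; limma, adjusted p = 0.0201). For ssq-3 the values were 2.03 and 2.40 CPM in the mutant and 0.188 and 0.270 CPM in wild type, from 30 and 37 reads against 3 and 4 reads (limma, adjusted p = 0.0156, and 0.0133 over all rows). For ssq-1 they were 3.11 and 4.99 CPM in the mutant and 0.817 and 2.16 CPM in wild type, and this gene did not pass (log2 change 1.05, SE 0.34; limma, adjusted p = 0.078). The single sss gene, sss-1, had 2.57 and 4.21 CPM in the mutant and 0.503 and 0.877 CPM in wild type (log2 change 1.36, SE 0.29; limma, adjusted p = 0.0256, and 0.0236 over all rows).

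The nspd genes are the shortest of the families, with 213 to 222 bases in 1 exon. Of 9, 4 rose, 0 fell and 5 did not pass over all rows, and in all 9 both mutant libraries lay above both wild-type libraries. The sum was 14.5 and 19.9 CPM in the mutant and 2.32 and 5.33 CPM in wild type, a ratio of 4.50. The highest pair, nspd-1 and nspd-2, had 3.24 and 3.69 CPM and 2.23 and 4.14 CPM in the mutant, against 0.565 and 0.944 CPM and 0.0628 and 0.742 CPM in wild type. Both rose (limma, adjusted p = 0.0185 and 0.028, and 0.0171 and 0.0254 over all rows). So did nspd-5, with 1.69 and 3.56 CPM in the mutant and 0.126 and 0.607 CPM in wild type (limma, adjusted p = 0.0352, and 0.0317 over all rows). Of these 3, edgeR called nspd-1 and not nspd-2 or nspd-5 (adjusted p = 0.0562 and 0.0518). Although its mutant libraries were nearly equal at 2.09 and 2.14 CPM, nspd-7 did not pass, with 0.628 and 1.15 CPM in wild type (adjusted p = 0.0909). The other gene that rose, nspd-6, was named after its values were seen: it had 18 and 23 reads in the mutant and 3 and 0 in wild type, a depth-scaled ratio of 13.9 with an exact interval of 4.43 to 70.1.

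In the nsph family 5 of 6 genes rose, and nsph-1.2 did not pass. The highest of the 5, nsph-3.2 (chromosome IV, 10112870 to 10114287, plus strand), had 6.22 and 9.26 CPM in the mutant and 0.691 and 2.29 CPM in wild type (log2 change 1.87, SE 0.36; limma, adjusted p = 0.0219). Its paralog by name, nsph-3.1, had 4.12 and 5.89 CPM in the mutant and 0.377 and 1.89 CPM in wild type (limma, adjusted p = 0.0352), and edgeR did not call it (adjusted p = 0.0664). The gene nsph-4.2 had 4.80 and 5.76 CPM in the mutant and 0.880 and 1.21 CPM in wild type (log2 change 1.62, SE 0.25; limma, adjusted p = 0.0123). These 3 had ratios between 4.42 and 5.19. The remaining pair, nsph-4.1 and nsph-2, had ratios of 4.45 and 5.90.

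Unlike these, nsph-1.2 (R05D7.5, chromosome I, 12183688 to 12189008, plus strand) was the most abundant of the 62 in every library. It had 18.4 and 12.7 CPM in the mutant, from 273 and 196 reads, and 18.8 and 20.2 CPM in wild type, from 299 reads in each library. Both mutant libraries lay below wild type, replicate 3 by little, and its difference missed the threshold at -0.33 on the log2 scale (SE 0.20; 95% interval -0.79 to 0.14; limma, adjusted p = 0.296). It passed, at -0.58, when mutant replicate 3 was left out. With 9 annotated exons it has the most of any member. It is the only member with a mean of at least 5 CPM over the 4 libraries, so a filter at that level leaves no other member to test.

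**Figure D3:**
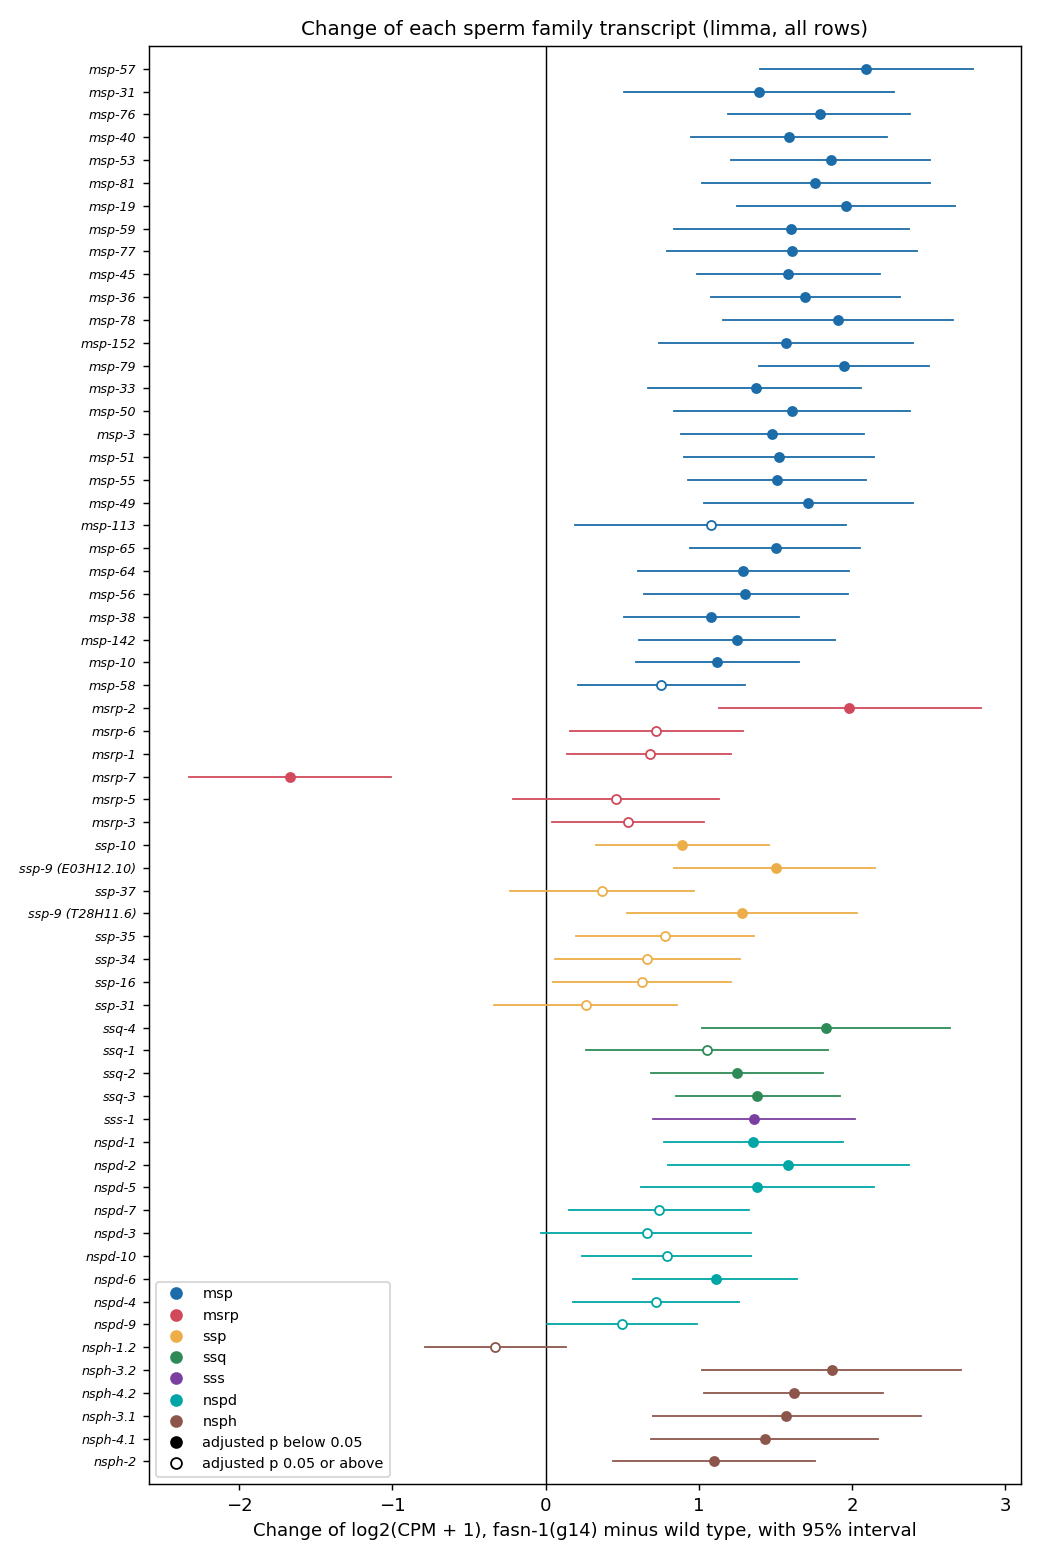
Change of log2(CPM + 1), fasn-1(g14) minus wild type, with its 95% interval for each of the 62 transcripts in the limma fit over all rows, coloured by family. Filled points mark adjusted p below 0.05: 43 lie to the right of 0 and 1, msrp-7, to the left, and open points mark the 18 that did not pass.

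Per kilobase of annotated exon, the families can be set side by side, within the limit given above for reads that fit several msp copies. The msp genes had a median of 9.38 CPM per kb in the mutant (3.93 to 14.6) and 1.43 CPM per kb in wild type (0.509 to 3.43). The highest levels per length in the mutant belonged to msrp-2 and nspd-1, at 17 and 16.3 CPM per kb, with 2.13 and 3.54 CPM per kb in wild type. In wild type the highest per length was nsph-1.2, at 15.4 CPM per kb, followed by msrp-7 at 8.71, where the mutant had 12.3 and 1.48 CPM per kb.

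The members also share their place in the genome. In WBcel235, 51 of the 62 lie on chromosomes II and IV, with 35 of these, or 56.5% of the members, on chromosome IV, which holds 16.5% of all rows of the table. None lies on the X chromosome, which holds 14.7% of rows. When members at most 50 kb apart are joined, 39 of them fall in 7 groups of 3 or more, and several groups hold more than 1 family. The group at 9836034 to 9895014 on chromosome IV holds 8 members within 59.0 kb, namely msp-81, msp-10, msp-56, nspd-2, ssp-10, ssq-1, sss-1 and msp-77. Of these 7 rose over all rows, with log2 changes from 0.89 to 1.76. The group at 4994371 to 5065061 on the same chromosome holds both ssp-9 genes, ssq-2, ssq-4, msp-55, msp-57 and msp-53, and all 7 rose, with log2 changes from 1.25 to 2.09. On chromosome II, the group from 4785898 to 4933410 holds 5 msp and 2 nspd genes, of which 6 rose. The 15 members that stand alone include both that ran lower, msrp-7 and nsph-1.2.

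Within each group of animals the 2 libraries differed in a like direction for most members. In the mutant, replicate 4 lay above replicate 3 in 51 of the 62 genes, and in wild type in 57 of the 62, against 6567 and 7690 of all 13758 rows. For the msp sum, replicate 4 was 1.43 times replicate 3 in the mutant and 2.32 times in wild type. The ratio of mutant to wild type in the msp sum was thus 8.54 between the libraries numbered 3 and 5.26 between those numbered 4. The numbers were not treated as pairs, because over all genes tested the same-numbered libraries did not deviate together (correlation -0.214). Among the members they mostly did, and such values cannot show whether the samples were handled in pairs. Even the lowest mutant msp sum, 84.8 CPM, lay above the highest wild-type sum, 23.0 CPM.

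Genes of sperm formation outside the 7 families were taken from a list of 51 names, some of them synonyms, of which 29 rows were in the table. Of these, 24 were tested with the filter, and 6 rose, 0 fell and 18 did not pass, against the 4.41% of all tested genes that rose. In 8 of the 24 the filter was passed through the mutant libraries alone, and over all rows the count was again 6 of 29. By edgeR over all rows 4 rose, without spch-1 and gsp-3 (adjusted p = 0.0566 and 0.0507). With wild-type replicate 3 left out 0 of them rose, with wild-type replicate 4 left out 1, and with mutant replicate 3 left out 13. Over all rows these counts were 1, 3 and 13. In 20 of the 29 rows both mutant libraries lay above both wild-type libraries, in 4 both lay below, and in 5 the groups overlapped. Over all rows of the table the mutant libraries lay above in 30.9% and below in 32.7%. The median log2 change of the 29 rows was 0.30.

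Those that rose encode MSP-domain, chromatin and phosphatase proteins of the sperm cell, but other genes grouped in these roles did not pass. They were smz-1, smz-2, htas-1, gsp-4 and the msd-1 row F44D12.3 (limma, adjusted p = 0.061, 0.127, 0.438, 0.157 and 0.0777 over all rows). The MSP-domain gene msd-4 had 3.58 and 4.40 CPM in the mutant and 0.188 and 0.675 CPM in wild type (log2 change 1.82, SE 0.27; limma, adjusted p = 0.0116, and 0.0102 over all rows). Of the 2 rows named msd-1, F44D12.7 rose, with 2.50 and 2.01 CPM in the mutant and 0.0628 and 0.472 CPM in wild type (limma, adjusted p = 0.0219, and 0.0188 over all rows). The sperm chromatin genes spch-3, spch-2 and spch-1 had 4.93 and 3.63, 2.16 and 1.55, and 2.97 and 2.59 CPM in the mutant, against 0.817 and 1.15, 0.251 and 0.270, and 0.188 and 0.877 CPM in wild type. All 3 rose (limma, adjusted p = 0.0184, 0.0251 and 0.028, and 0.0172, 0.022 and 0.0257 over all rows). The sixth, named after its value was seen, was gsp-3, which encodes a sperm-specific protein phosphatase, with 1.96 and 3.69 CPM in the mutant and 0.503 and 0.809 CPM in wild type (limma, adjusted p = 0.0405, and 0.0381 over all rows).

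Neither fog-1 nor spe-44, 2 regulators of the sperm fate, passed, nor did fer-1, and these 3 were chosen for their role after their values were seen. Other regulators in the list, snpc-1.3, elt-1 and fog-3, did not pass over all rows either. Their ratios of mutant to wild type were 0.707, 0.923 and 0.924. The groups of elt-1 and fog-3 overlapped, and fog-3 had 3 and 7 reads in the mutant and 7 and 4 in wild type. Whole animals do not show in which cells the genes of this list were expressed. The RNA-binding gene fog-1 had 29.5 and 31.7 CPM in the mutant and 23.7 and 23.8 CPM in wild type (log2 change 0.35, SE 0.12; limma, adjusted p = 0.0953). The transcription factor gene spe-44 had 23.4 and 24.7 CPM in the mutant and 21.4 and 20.5 CPM in wild type (log2 change 0.19, SE 0.13; adjusted p = 0.355). The gene fer-1, needed for fusion of the sperm's membranous organelles, had 1.55 and 1.17 CPM in the mutant and 1.88 and 1.35 CPM in wild type (log2 change -0.15, SE 0.25; adjusted p = 0.726). Others that did not pass ran higher in both mutant libraries: spe-46, spe-4, spe-11 and snf-10, with ratios of 3.48, 2.63, 2.31 and 1.56. They had 21 to 37 reads over the mutant pair and 8 to 23 over the wild-type pair. Both mutant libraries lay below in 4 of the 29 rows, snpc-1.3, spe-5, spe-6 and spe-15. Per length, cpb-1, which encodes an RNA-binding protein needed for spermatogenesis, had 50.9 CPM per kb in the mutant and 41.3 CPM per kb in wild type. These values lay above the deposited level of every msp gene. For msp genes, reads that fit several copies and untranslated ends of the annotation may be missing. The change of cpb-1 did not pass (limma, adjusted p = 0.0708).

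**Figure D4:**
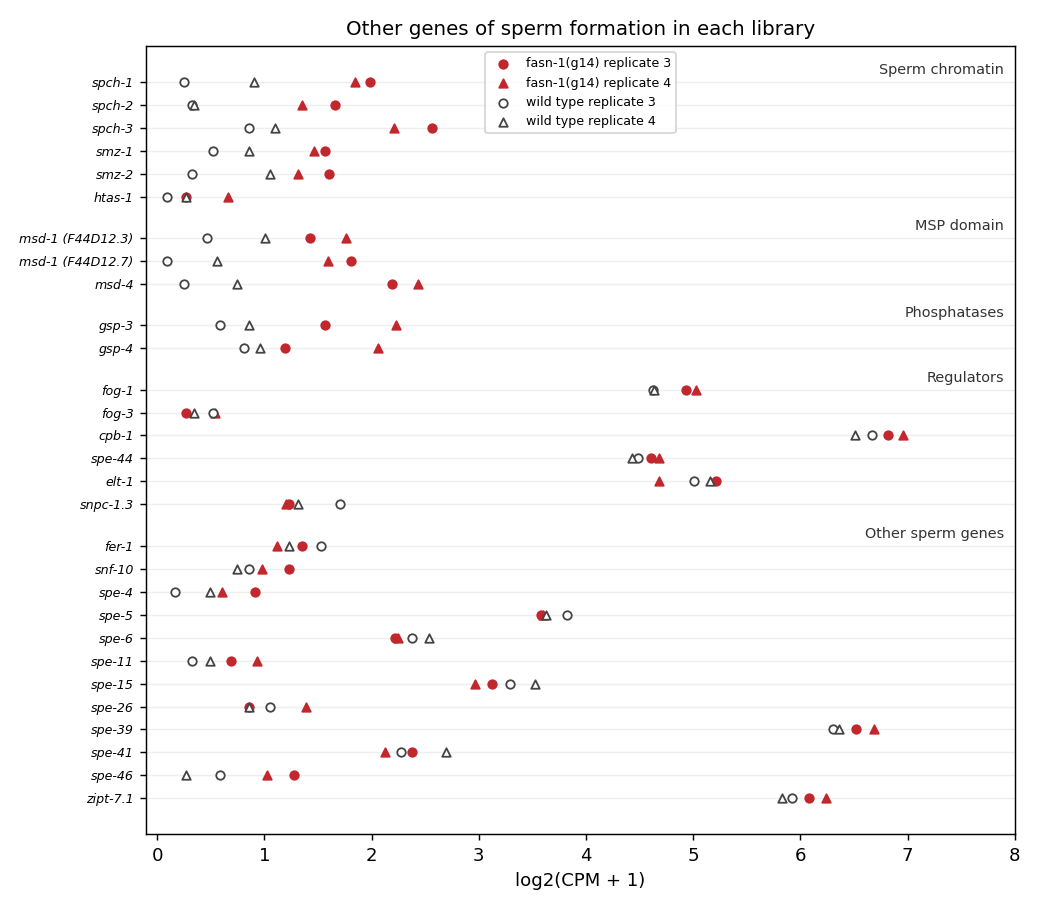
Level, as log2(CPM + 1), of the 29 rows of other sperm genes in fasn-1(g14) replicates 3 and 4 (filled) and wild-type replicates 3 and 4 (open), arranged by role. The filled and open symbols stand apart for spch-3 and msd-4, while those of spe-44, elt-1 and fer-1 lie close together or overlap.

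On the receiving side of the MSP signal, 23 genes acting in the oocyte and sheath were in the table and tested. Of these 1 rose, 6 fell and 16 did not pass, against 4.41% and 10.7% of all tested genes. The receptor gene vab-1, which encodes an Eph receptor that binds MSP and was picked for that role after its value was seen, had 292 and 288 CPM in the mutant and 273 and 282 CPM in wild type (log2 change 0.06, SE 0.07; limma, adjusted p = 0.574). The sheath gap junction gene inx-8 rose, with 57.2 and 75.4 CPM in the mutant and 36.6 and 35.5 CPM in wild type (adjusted p = 0.0147). The sheath homeobox gene ceh-18 fell, with 9.06 and 8.22 CPM in the mutant and 17.3 and 21.7 CPM in wild type (log2 change -1.08, SE 0.19; adjusted p = 0.016).

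The genes kin-1 and kin-2, for the catalytic and regulatory subunits of protein kinase A, and unc-43, for the calcium and calmodulin dependent kinase, fell by 0.91, 0.45 and 0.66 on the log2 scale (limma, adjusted p = 0.0177, 0.0253 and 0.0204). So did gsa-1, for the stimulatory G protein alpha subunit, and plc-1, for a phospholipase C, by 0.87 and 0.96, both named after their values were seen. These signalling genes are also expressed in muscle and neurons, and whole animals do not show in which cells the level differed.

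Markers of other cells and stages gave these values beside the sperm families, where 4.41% of all tested genes rose and 10.7% fell. Of 14 oocyte genes 0 passed, with a summed level of 12800 and 16300 CPM in the mutant and 12600 and 11800 CPM in wild type. Of 8 molting genes qua-1 and noah-2 fell and 0 rose, with sums of 386 and 216 CPM in the mutant and 472 and 586 CPM in wild type. Of 6 early embryo genes 5 were tested and 0 passed, with sums of 28.5 and 17.5 CPM in the mutant and 24.1 and 23.3 CPM in wild type. Of 5 gonadal sheath genes 4 were tested, 1 rose and 1 fell, with sums of 94.3 and 112 CPM in the mutant and 84.7 and 87.3 CPM in wild type. Most of the mutant sum was inx-8, at 57.2 and 75.4 CPM. Both mutant libraries lay above wild type in 2 of the 5, inx-8 and inx-9, and below in 2, ceh-18 and lim-7. For lim-7 the values were 10.7 and 4.99 CPM in the mutant and 14.3 and 16.7 CPM in wild type (limma, adjusted p = 0.0751). Of 11 names of male-specific genes 1 had a row, cwp-4, at 1.01 and 0.324 CPM in the mutant and 1.95 and 2.70 CPM in wild type, and it did not pass (adjusted p = 0.0567). Some genes stand in 2 lists: oma-1 and oma-2 among oocyte genes, and ceh-18, inx-8 and inx-9 among sheath genes, are also in the MSP response list. None of these marker rows stood at 0 over a group, but of all 13758 rows only 3 did in wild type and 4 in the mutant. Names without a row could not be judged. The part of cell make-up or stage in the levels of the sperm families was not tested.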

How the data were processed

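Whole early adults were profiled in 4 libraries, 2 per genotype. The authors deposited 1 normalized signal value for each gene and library, called CPM. The submitters' processing notes name Bowtie2 (2.3.3.1), HTSeq (0.12.4) and, for R, edgeR (3.28.1), with no roles. Neither a genome build nor a rule for keeping rows is stated there. Column sums ran from 942000 to 1030000. All values (100%) were whole multiples of 1 read within 0.001 read, so reads were recovered. A further 8 columns of other samples were not used. Of the 13758 rows, 13747 matched 1 gene in Ensembl release 115, 8 none, and 3 were ambiguous.

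The members, lists and tests were chosen with earlier results of these data known. limma 3.58.1 (R 4.3.3, mean-variance trend, two-sided) was fitted to log2(CPM + 1) on genotype, for genes that reached 1 CPM in 2 or more libraries and also for all rows, with Benjamini-Hochberg adjustment over all genes fitted. A log2 change is the mutant mean less the wild-type mean, and the added 1 CPM shrinks it for low genes. Unless "over all rows" is written, limma adjusted p-values come from the filtered fit. Those of edgeR printed for single genes are always over all rows. Folds and ratios are of mean deposited CPM, except depth-scaled read ratios, whose Clopper-Pearson intervals cover counting error only, since reads without molecular identifiers are not independent molecules. The design had foreseen CPM; the column sums made the unit a normalized signal, and the test was kept.

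edgeR 4.0.16 and DESeq2 1.42.0 on recovered reads, other pseudocounts, filters and scalings, a replicate block and each library left out were tried as alternatives. The tests were tried on simulated data. Named are the 8 highest msp genes and up to 4 of each other family by mean CPM, the 3 members with the smallest p, the one called lower, the largest and smallest change, and up to 5 genes of the other-sperm and MSP-response lists by p with a mean of at least 1 CPM. All other genes named with values, among members msp-19, msp-78, msp-113, msp-58, msrp-3, msrp-5, ssp-16, ssp-31, ssp-34, ssp-35, nspd-6, nsph-2 and nsph-4.1, were chosen after their values were seen. The same-numbered libraries did not deviate together (correlation -0.214 across genes), so numbers were not treated as pairs.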

Additional observations from a re-analysis of the deposited data

How the results depend on the processing

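The fit with the replicate number as a block called 45 members higher and 1 lower, beside 626 of all genes higher and 1872 lower. The same-numbered deviations correlated at -0.214, so a crossed pairing was added after the data were seen; it gave 1197 genes higher and 2310 lower, with 46 members and 10 other sperm genes higher. Leaving out 1 library at a time, with the lone library assumed to vary like the other pair, gave 151 to 2346 genes higher, 179 to 3268 lower, 5 to 48 members higher and 0 to 13 other sperm genes higher. Over all rows (added after the data were seen), leaving out mutant replicate 3 or 4 gave 2239 and 905 genes higher and 3289 and 1682 lower, with 50 and 42 members and 13 and 6 other sperm genes higher. Leaving out wild-type replicate 3 or 4 gave 181 and 179 higher and 583 and 255 lower, with 7 and 23 members and 1 and 3 other sperm genes higher. Requiring a mean of 5 CPM left 1 member and called 288 genes higher and 509 lower, with 0 members and 0 other sperm genes higher, because 61 members fall below that level. Scaling each library to the same sum called 361 genes higher, with 38 members. On recovered reads edgeR with the filter called 439 genes higher and 913 lower, with 29 members higher. Without the filter (added after the data were seen) it called 445 genes higher, with 28 members. DESeq2 called 507 genes higher, with 35 members. A pseudocount of 0.5 CPM called 513 genes higher, with 39 members, and one of 5 CPM 644, with 43 members. In each of these filtered fits but the stricter one, 50 of the 52 members had a change above 0 and 2 below. Fits not said to be over all rows, without the filter or at a mean of 5 CPM keep the filter, which 29 of the 52 members passed through the mutant libraries alone. The log2 ratio of the summed members was 1.75, and 1.43 to 2.17 with 1 library left out. The cause of these differences was not tested, beyond the filter that removes members. With 3 reads worth 0.188 to 0.203 CPM, wild-type levels of many members carry large counting error.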
